A study of Mus musculus with 12 samples.

Results

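The comparison set the 4 arrays labelled Jmjd2a-depleted against the 4 labelled Jmjd2c-depleted, with 2 arrays of each label at day 1 and 2 at day 3. These are 8 of the 12 arrays of the series, chosen by their titles alone, and the 4 remaining arrays are controls that entered no test here. RNA came from splenic B220+ B cells of C57BL/6 mice carrying the MD4 transgene, Tg(IghelMD4)4Ccg, which gives B cells a receptor for hen egg lysozyme (HEL). The cells were purified with magnetic beads and cultured with an antibody against CD40, interleukin-21 and HEL. Every group, the controls included, shared this strain, transgene and stimulation, and the groups differed in the RNA interference they received (against Jmjd2a, against Jmjd2c, or a control) and in the day. The labels name small interfering RNAs in some fields and viruses carrying short hairpin RNAs in others, and they give neither age nor sex. The titles call the 2 arrays of a group biological replicates but name no separate animals or cultures, so p-values measure only the spread between these arrays. A day 0 named in the design text was not analysed here.

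Jmjd2a (Kdm4a) and Jmjd2c (Kdm4c) are related enzymes with a Jumonji C domain that take methyl groups off lysine 9 of histone H3, a mark found at silent chromatin, and off lysine 36 of the same histone. A stimulated B cell that becomes a plasma cell switches from a programme held by Pax5, Bcl6 and Bach2 to one driven by Prdm1, Irf4 and Xbp1, and devotes itself to secreting antibody. The series addresses which genes the 2 demethylases regulate during this step. Setting one depletion against the other asks where their transcript profiles differ, and it does not show what they share.

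RNA was hybridised to Affymetrix mouse genome arrays, and the deposited log2 values had array medians of 5.20 to 5.25. Genes of mature B cells had mean levels of 9.47 to 10.69 on the 8 arrays, and neutrophil markers of 4.50 to 7.06. The targeted transcripts were examined first, since they check the labels. Differences are given as log2 of Jmjd2a over Jmjd2c throughout. Kdm4a read 7.94 and 8.09 on the Jmjd2a arrays of day 1, against 8.06 and 8.13 on the Jmjd2c arrays. At day 3 it read 8.08 and 8.05 with Jmjd2a and 7.94 and 8.0 with Jmjd2c, so that the labels overlapped at day 1 and the Jmjd2a arrays were the higher at day 3. With days pooled the difference was 0.01 (95% interval -0.12 to 0.14, adjusted p = 0.97 by limma), and a second, dim probe set gave 0.13. Against the controls, both Jmjd2a arrays lay above at day 1 (controls 7.90 and 7.92) and below at day 3 (8.20 and 8.17), and at day 3 both Jmjd2c arrays lay lower still.

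Kdm4c read 8.0 and 8.09 with Jmjd2a at day 1, against 8.02 and 7.98 with Jmjd2c. At day 3 it read 7.90 and 7.91 against 7.81 and 7.78. The values with Jmjd2c were the lower at day 3 only, and the pooled difference was 0.08 (interval -0.03 to 0.19, adjusted p = 0.58). Control arrays read 7.78 and 7.84 at day 1 and 7.96 and 7.56 at day 3. Neither transcript passed the test between the labels, and whether the proteins differed was not tested. The relatives Kdm4b (0.06, interval -0.07 to 0.20) and Kdm4d (-0.05, interval -0.25 to 0.16) also gave intervals that include 0.

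The 2 labels gave closely similar profiles. With days pooled, 0 of 45037 probe sets (0%) passed limma's test at an adjusted p under 0.05, and the smallest adjusted p was 0.25. An unadjusted p under 0.05 was reached by 4986 probe sets (11.1%), 2887 of them higher and 2099 lower with Jmjd2a. The median size of the log2 differences was 0.07, and 99% of probe sets lay within 0.34. A 2-fold difference was passed by 10 probe sets, all lower with Jmjd2a, and a 1.5-fold difference by 4 higher and 28 lower. The 95% interval lay wholly within 1.5-fold either way for 98.7% of probe sets and within 2-fold for 99.9%, so that larger pooled differences are compatible with the arrays for few transcripts. Taking the mean of the within-day differences, in a model that lets each day have its own label difference, called 17 probe sets (16 lower, 1 higher with Jmjd2a). All 17 were also called at day 3.

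Within days the result differed. At day 1, 0 probe sets (0%) passed limma's test, with a smallest adjusted p of 0.96 and 2132 (4.73%) at an unadjusted p under 0.05. Without Jmjd2a day 1 replicate 1 this count was 56, and without Jmjd2c day 1 replicate 1 it was 19. At day 3, 49 probe sets (0.109%) passed, 41 lower with Jmjd2a (0.091%) and 8 higher (0.0178%). This balance depended on the fit, for a fit on the day 3 arrays alone called 270 lower and 816 higher, and one with the replicate number as a block called 110 lower and 148 higher. A test of the day 3 difference minus the day 1 difference called 6 probe sets (0.0133%), all of them among the 41. The day 3 count ranged from 10 to 61 when 1 array was left out, and it was 10 without Jmjd2a day 3 replicate 1, 15 without its replicate 2 and 19 without Jmjd2c day 3 replicate 1. The count of 6 was 0 without any one of those 3 arrays. With the 4 controls in the fit, 0 probe sets passed at day 3.

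**Figure D1:**
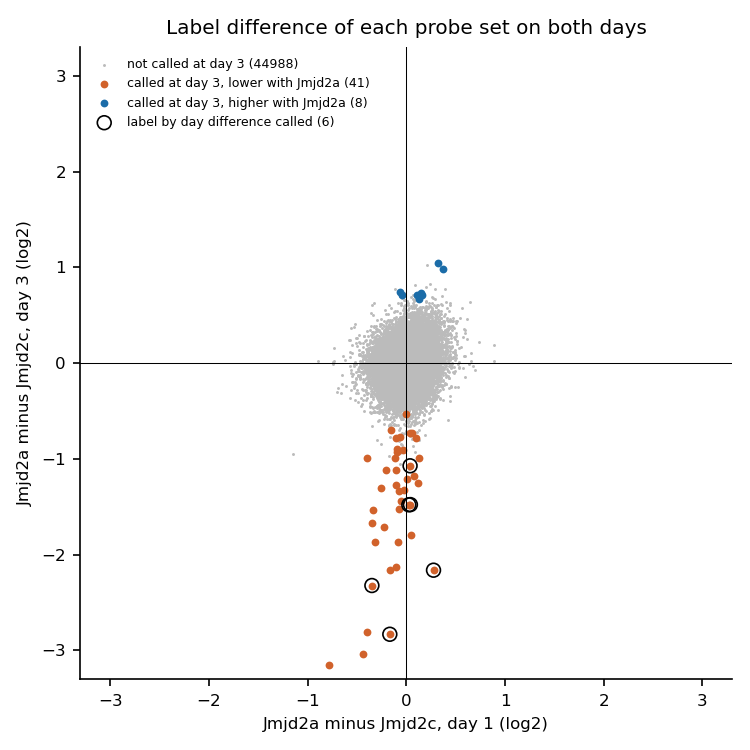
Each point is a probe set, with its log2 difference between labels at day 1 on the x axis and at day 3 on the y axis. The 41 probe sets called lower with Jmjd2a at day 3 extend down to -3.15 at day 3 and lie between -0.78 and 0.28 at day 1 (median -0.09), and the circled 6 passed the test of the difference between days.

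**Figure D2:**
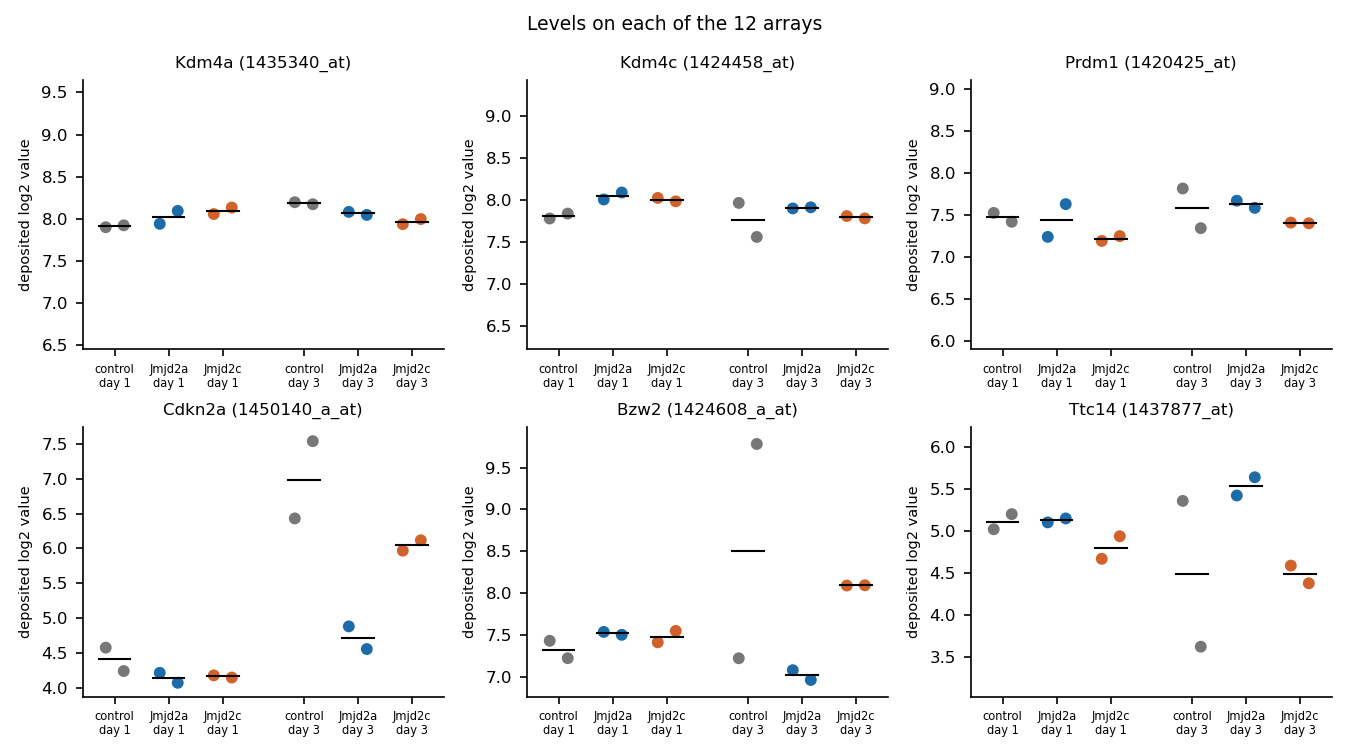
Deposited log2 values on each of the 12 arrays for 6 probe sets, with points for arrays and bars for the mean of 2. Kdm4a and Kdm4c lie close together under both labels, Cdkn2a and Bzw2 are lower with Jmjd2a than with Jmjd2c at day 3, and Ttc14 is higher.

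Among the regulators of plasma cell formation, Prdm1 is the repressor that ends the B cell programme. It read 7.24 and 7.63 with Jmjd2a and 7.19 and 7.25 with Jmjd2c at day 1, and 7.67 and 7.58 against 7.41 and 7.40 at day 3. The labels overlapped at day 1 and did not at day 3. The pooled difference of 0.22 (interval 0.05 to 0.39) did not pass (adjusted p = 0.36 by limma). Irf4, which acts with Prdm1, gave 0.06, and Xbp1, which expands the secretory apparatus, gave -0.01 with an interval of -0.09 to 0.07. The plasma cell surface marker Sdc1 gave 0.07. The antibody joining chain Jchain gave -0.05, and the endoplasmic reticulum cofactor Mzb1 gave -0.07. None of these passed.

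Factors that hold the B cell state were as close. Pax5 differed by 0.08 (interval -0.11 to 0.28), Bcl6 by 0.05 (-0.06 to 0.17) and Bach2 by 0.08 (0.00 to 0.15). For the proliferation genes, Myc gave 0.03, its interval running from -0.13 to 0.20, while the cyclin Ccnd2 gave 0.04 and the marker of cycling cells Mki67 gave 0.05. The kinase inhibitors Cdkn1b and Cdkn2c gave 0.00 and -0.01, and the phosphatase Cdkn3 gave 0.01. Wdr5, a subunit of histone H3 lysine 4 methyltransferases, gave 0.03, and the NF-kB inhibitor Nfkbia gave -0.05. For all 17 genes from Prdm1 to Nfkbia the interval of the brightest probe set lay within 1.5-fold either way. Its sign was shared by 1 of 5 probe sets of Nfkbia, 1 of 2 of Cdkn1b and 2 of 4 of Xbp1. For Bach2 it was 2 of 3, for Sdc1 3 of 4 and for Ccnd2 6 of 7, and for the other genes all shared it.

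No gene could be named as past the pooled test, so the largest differences without overlap are given as values. On both days the 2 Jmjd2a arrays lay wholly above the 2 Jmjd2c arrays for 2477 probe sets (5.5%) and wholly below for 2163 (4.8%). The sides were opposite on the 2 days for 1201 and 1160. Genes are named from probe sets of 1 gene whose mean under the higher label was above the median level of all probe sets (5.21), so a probe set could enter through the label in which it was high. Among these, the largest positive difference was that of Ttc14, a tetratricopeptide repeat protein. It read 5.10 and 5.15 with Jmjd2a against 4.67 and 4.94 with Jmjd2c at day 1, and 5.42 and 5.64 against 4.59 and 4.38 at day 3. The pooled difference was 0.68 (interval 0.38 to 0.99, adjusted p = 0.25), and all 10 probe sets of Ttc14 had a positive sign.

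Tlk2, a kinase of chromatin assembly factors, read 5.82 and 5.61 against 5.56 and 5.28 at day 1 and 5.71 and 5.64 against 4.97 and 4.84 at day 3. Its difference was 0.53 (interval 0.29 to 0.78), with all 5 of its probe sets positive. Rhoh, a GTPase of blood cells, differed by 0.52 (0.35 to 0.70) and Erbin by 0.47 (0.30 to 0.64). For Rhoh 1 of 3 probe sets had that sign and for Erbin 4 of 4. The ubiquitin ligase Itch (0.48), the translation release factor Gspt1 (0.48), the pseudokinase of the stress response Trib3 (0.48) and Gm4274 (0.48) followed. Mbtps1, the protease that activates sterol-sensing factors, and Rabgap1 and the scramblase Plscr1 each gave 0.47, and the membrane fusion factor Nsf also gave 0.47. For Rabgap1 and Nsf 2 of 4 probe sets were positive, and for Trib3 1 of 2. Trib3 rests on 1 array, for it read 7.86 on Jmjd2a day 1 replicate 2 and between 6.48 and 6.83 on the other 7 arrays.

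Under the same filter the largest negative differences were smaller than the positive ones. Probe sets left out by the filter reached further down without overlap on either day. Among them were the dimmer Gm3715 with -1.09 and an unnamed probe set of mean level 6.83 with -1.34. Rpf2, a ribosome assembly factor, read 7.25 and 7.10 with Jmjd2a against 7.39 and 7.28 with Jmjd2c at day 1, and 7.10 and 7.33 against 7.83 and 7.73 at day 3. Its pooled difference was -0.36 (interval -0.56 to -0.16, adjusted p = 0.29). Ccm2l also gave -0.36, Homer3, a scaffold protein of synapses, gave -0.33, and the glycosyltransferase B3galt5 gave -0.33. The transcription factors Zbtb20 and Eomes, the latter found in cytotoxic lymphocytes, gave -0.32 and -0.31. Only 2 of 9 probe sets of Zbtb20 were negative, and its brightest gave 0.13. The sign was shared by 1 of 2 probe sets of Eomes, 2 of 4 of Rpf2 and 3 of 4 of Mxd4. Mxd4, which competes with Myc for Max, read 8.31 and 7.76 against 8.45 and 8.42 at day 1 and 7.32 and 7.24 against 7.62 and 7.35 at day 3, a difference of -0.30. Ifnz and Gm3912 each gave -0.32, and Itgb3 (1 of 2 probe sets negative), Shisal1 and Cobl (2 of 2 each) gave -0.30.

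A difference between the 2 control arrays of day 3 moved with these signs. Of the 2477 probe sets higher with Jmjd2a on both days, 82.7% read lower on day 3 control replicate 2 than on replicate 1, against 51.6% of all probe sets. Of the 2163 lower with Jmjd2a, 78.9% read higher there, against 48.3% of all. Its part in the label difference was not tested.

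The 34 gene lists covered pathways of the culture and markers of other spleen cells, and 574 of their 637 entries were measured. With days pooled and at day 1, 0 members passed, and at day 3 the only member that passed was Cdkn2a. Over all 18193 genes measured by their brightest probe set, 7 passed at day 3, and 0 passed at day 1 or with days pooled. List medians ran from -0.19 to 0.06, beside -0.01 for all genes measured by their brightest probe set. Among chromatin genes, 16 of 21 Jumonji and LSD demethylases had a positive sign (median 0.04), with Kdm1b at 0.15 and Jmjd1c at 0.13. Of 14 H3K9 methyltransferases and HP1 proteins, 10 were positive (median 0.02). The corepressor Trim28, which recruits such enzymes, had the smallest p of that list, with means of 10.95 against 11.07 at day 1 and 11.09 against 11.29 at day 3. Its difference was -0.16 (interval -0.23 to -0.09, adjusted p = 0.25). Of 17 cohesin and chromosome structure genes 13 were positive, and the cohesin regulator Pds5a gave 0.21 (interval 0.09 to 0.33, adjusted p = 0.30).

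Interferon-induced genes had the highest median (0.06), and 19 of 22 were positive, among them Ifit1 (0.19) and Usp18 (0.16). The median was 0.02 after quantile normalization. Their mean levels were 7.72 and 7.78 with Jmjd2a against 7.72 and 7.73 with Jmjd2c at day 1, which overlap, and 7.79 and 7.78 against 7.72 and 7.66 at day 3, which do not. In the plasma cell programme 14 of 21 members were positive (median 0.04), and Creb3l2, a membrane-bound transcription factor of secretory cells, gave 0.23 (interval 0.06 to 0.40). Of 16 cholesterol synthesis genes 13 were positive (median 0.04), and Hmgcs1 and Msmo1 gave 0.09 and 0.11. Myc targets (17 of 27 positive), the unfolded protein response (18 of 23), mitosis genes (17 of 29) and DNA replication genes (23 of 30) had medians between 0.00 and 0.03. Over all genes 47.4% were positive.

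Mature B cell genes were mostly negative, with 4 of 22 positive and a median of -0.04. Their mean levels were 10.67 and 10.40 with Jmjd2a against 10.65 and 10.69 with Jmjd2c at day 1, and 9.53 and 9.51 against 9.49 and 9.47 at day 3. The order of the labels was thus not the same on the 2 days. MHC class II genes, with 2 of 11 positive, had a median of -0.15 at day 1 and 0.02 at day 3. Their day 1 means were 11.70 and 11.55 with Jmjd2a against 11.69 and 11.89 with Jmjd2c, which overlap. When 1 array was left out, the pooled median ran from -0.11 to -0.002 for MHC class II and from -0.07 to 0.02 for mature B cell genes. Both upper ends came without Jmjd2a day 1 replicate 2. Immunoglobulin genes were measured for 5 of 14, with a median of -0.03.

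Markers of other cells had the lowest medians. Neutrophil markers gave -0.19 (1 of 12 positive), NK cell markers -0.16 (1 of 10), stromal and endothelial markers -0.13 (2 of 11) and macrophage markers -0.11 (6 of 20). Mean neutrophil marker levels were 4.82 and 6.50 with Jmjd2a and 4.87 and 7.06 with Jmjd2c at day 1, and between 4.50 and 4.65 on all 4 arrays of day 3. Macrophage markers were also higher on replicate 2 of both labels at day 1 (7.86 and 8.38, against 7.43 and 7.32 on replicate 1). At day 1, replicates therefore differed more than labels in neutrophil and macrophage markers, while at day 3 the neutrophil means were the lower with Jmjd2a without overlap (4.55 and 4.50 against 4.65 and 4.57). Stromal and endothelial markers read 4.81 and 4.83 with Jmjd2a against 4.94 and 4.90 at day 1, and 4.69 and 4.60 against 4.72 and 4.74 at day 3, with no overlap on either day. When 1 array was left out, the neutrophil median ran from -0.70 to 0.25 and the macrophage median from -0.33 to 0.11. The NK cell median ran from -0.23 to -0.03, the latter without Jmjd2a day 1 replicate 2, and the stromal median from -0.13 to -0.08, the latter without Jmjd2a day 3 replicate 2. The part of other cells in the label difference was not tested. In bulk RNA, fewer cells of a type and less RNA per cell cannot be told apart.

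**Figure D3:**
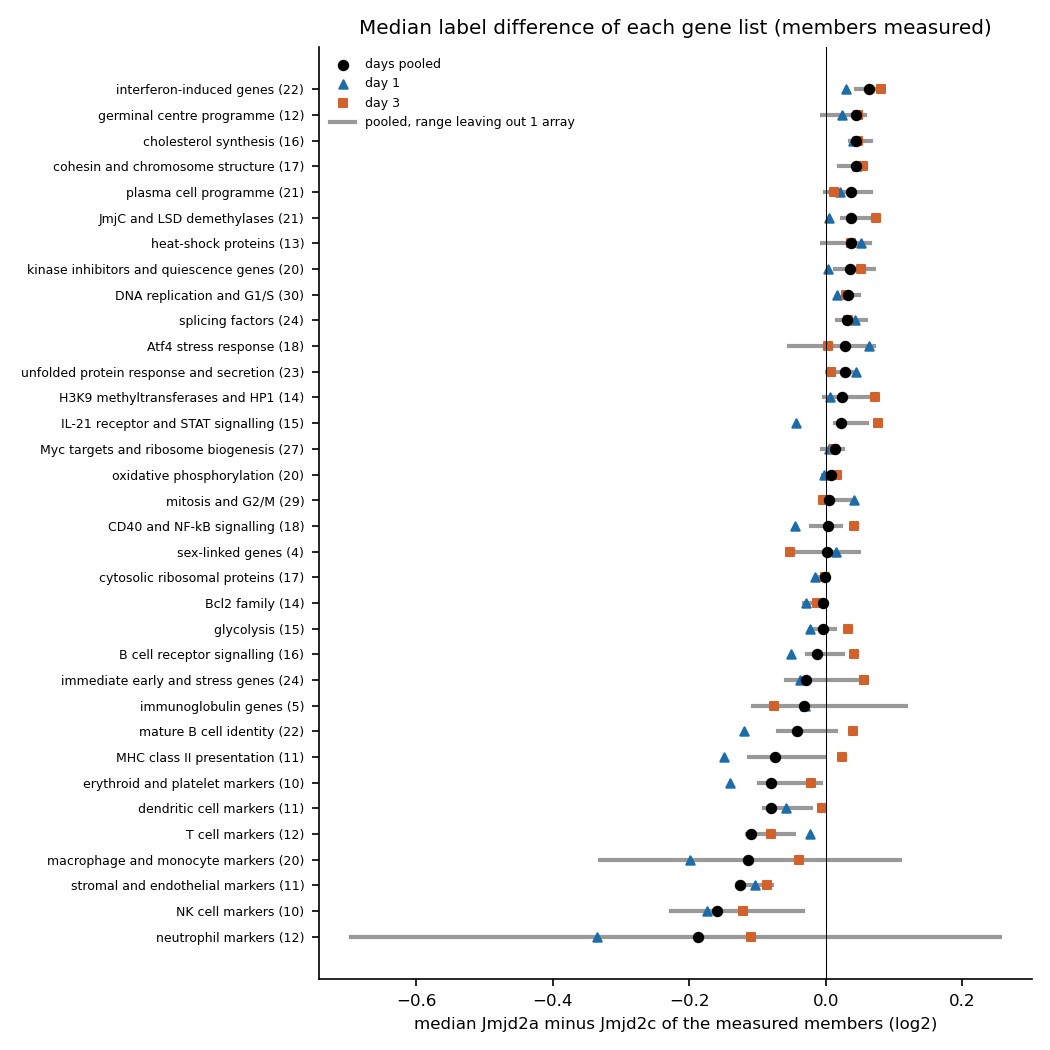
Median log2 difference between labels of each list, with the number of members measured, for the days pooled and for each day. Grey lines give the range of the pooled median when 1 array is left out; the neutrophil and macrophage lines cross 0, and the interferon line does not.

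Cdkn2a, which encodes the cell cycle inhibitors p16Ink4a and p19Arf from 2 start sites, passed at day 3. At day 1 it read 4.21 and 4.07 with Jmjd2a and 4.17 and 4.14 with Jmjd2c, and the controls read 4.57 and 4.24. At day 3 it read 4.88 and 4.55 with Jmjd2a against 5.97 and 6.12 with Jmjd2c, and 6.43 and 7.54 in the controls. The labels did not overlap at day 3, and the Jmjd2a arrays were the lowest of that day. The day 3 difference was -1.33 (interval -1.62 to -1.03, adjusted p = 0.0037 by limma), which is 2.51-fold lower with Jmjd2a. The difference between days, -1.31, did not pass (adjusted p = 0.14 by limma). When 1 array was left out, the day 3 difference of Cdkn2a ran from -1.49 to -1.16, but its call did not hold in every such fit. With all 12 arrays in the fit Cdkn2a did not pass at day 3 (adjusted p = 0.85 by limma). Its single probe set names the gene and not the start site. Promoters of both are shown, since they are alternative sources of the signal. They are the 250 bases before each RefSeq start on the minus strand of GRCm38.p6, with capitals for GC boxes (GGGCGG on either strand).

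Cdkn2a, start farther upstream, chr4:89294620-89294869: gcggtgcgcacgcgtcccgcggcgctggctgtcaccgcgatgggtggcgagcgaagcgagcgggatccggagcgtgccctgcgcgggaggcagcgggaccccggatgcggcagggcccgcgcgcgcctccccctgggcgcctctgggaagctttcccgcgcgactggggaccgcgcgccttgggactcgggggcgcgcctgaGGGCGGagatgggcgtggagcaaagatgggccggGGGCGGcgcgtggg
Cdkn2a, start farther downstream, chr4:89282193-89282442: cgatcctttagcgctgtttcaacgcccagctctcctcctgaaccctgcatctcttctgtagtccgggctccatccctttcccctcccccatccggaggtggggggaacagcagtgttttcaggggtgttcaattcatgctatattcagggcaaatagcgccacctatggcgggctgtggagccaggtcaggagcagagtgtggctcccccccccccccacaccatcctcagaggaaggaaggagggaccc
The upstream promoter held 2 GC boxes and 78.4% G and C, and the downstream one held 0 and 60.0%. A GC box was present in 32.7% of all 32851 promoters of this length in the RefSeq table. Neither window held the E-box CACGTG (6.0% of promoters) or the letters TATAAA (12.4%).

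The probe sets called lower with Jmjd2a at day 3 were mostly dim or unnamed, and Cdkn2a, with a mean of 4.76, was among the dim. Of the 41, 11 named 1 gene, 3 named several and 27 named none. The mean over the 8 arrays was below the median of all probe sets for 27, and 28 differed by more than 2-fold. Bzw2, a regulator of translation initiation, read 7.08 and 6.96 with Jmjd2a against 8.09 and 8.09 with Jmjd2c at day 3, and 7.53 and 7.50 against 7.41 and 7.55 at day 1. Its day 3 difference was -1.07 (interval -1.25 to -0.89, adjusted p = 7.1e-04), and its other 2 probe sets gave 0.11 and -0.33 without passing. Gm9222 read 5.04 and 5.30 against 7.51 and 7.16 at day 3 (-2.16, adjusted p = 0.0022).

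The one-carbon enzyme Shmt1 read 8.30 and 8.40 with Jmjd2a against 8.96 and 8.81 with Jmjd2c at day 3, a difference of -0.53 (adjusted p = 0.049), while its other 3 probe sets lay between -0.01 and 0.04. Acer2, a ceramidase of the Golgi, differed by -0.91 and Ntmt1, a methyltransferase of protein N-termini, by -1.21. The remaining genes were Gm3715 (-1.87), 4933438K21Rik (-1.79), Psg28 (-1.52), Vmn1r58 (-0.77) and 3110009F21Rik (-0.70). Psg28 belongs to the pregnancy-specific glycoproteins and Vmn1r58 to the vomeronasal receptors. Across the genes called at day 3 in either direction, 6 had further probe sets, 22 in all, and 0 of these 22 passed (smallest adjusted p = 0.32). These genes were named after their values were seen.

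The same probe sets separated the 2 day 3 controls. For 40 of the 41, control replicate 2 read more than 2-fold above control replicate 1, and for 40 both Jmjd2c arrays lay between the 2 controls. The exception to the first was an unnamed probe set, and the exception to the second was Cdkn2a. The 41 were called for Jmjd2c values above those with Jmjd2a, and the share of all probe sets with either pattern was not counted. Set against the mean of the day 1 controls, the 41 had a median of -0.05 with Jmjd2a at day 3, 1.26 with Jmjd2c, 0.02 on control replicate 1 and 2.86 on control replicate 2. The mean of the Jmjd2a arrays of day 3 lay within 2-fold of the mean of the day 1 controls for all 41. Across all probe sets these 2 groups of arrays correlated at a mean of 0.9967, so this closeness was not shown to be particular to the 41. On the linear scale, Jmjd2c exceeded Jmjd2a by a median of 0.22 of what control replicate 2 exceeded replicate 1 (quartiles 0.17 and 0.29).

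**Figure D4:**
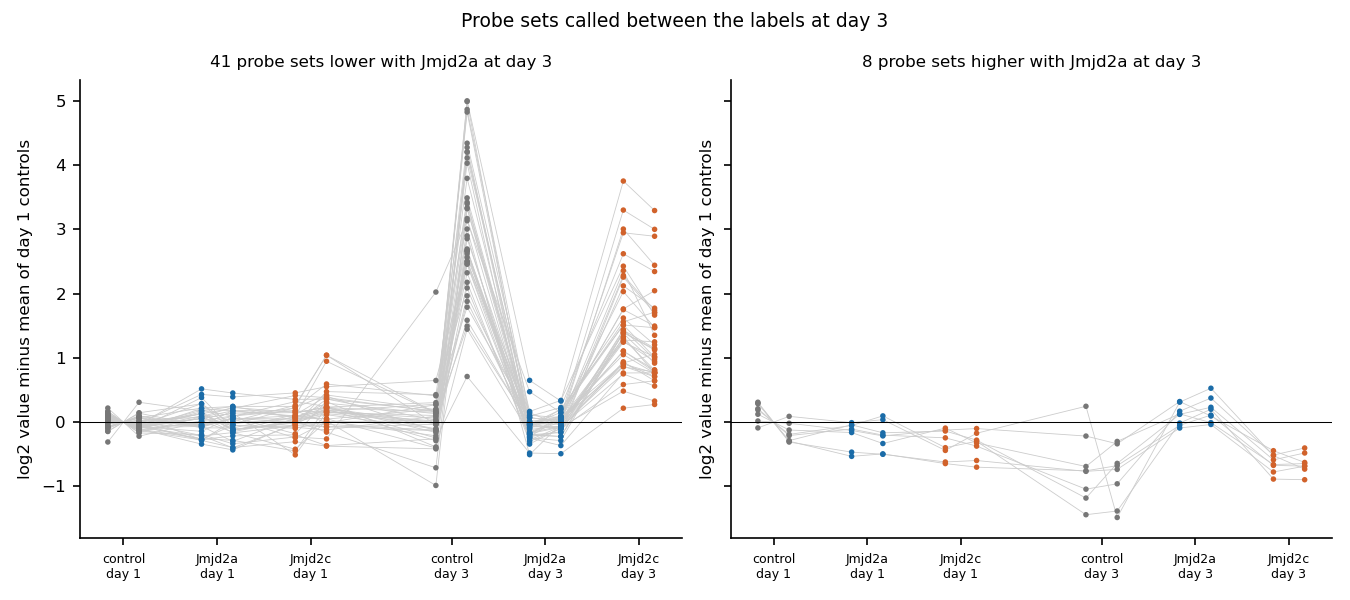
Log2 values of the 49 probe sets called at day 3, each minus its mean over the day 1 controls, on the 12 arrays in the order of replicates. In the 41 lower with Jmjd2a, control replicate 2 of day 3 is the highest array with a median of 2.86, the Jmjd2c arrays follow with 1.26, and the other arrays lie near 0.

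Probe sets that were not called had the same order. Of 57 probe sets that read more than 4-fold higher on day 3 control replicate 2 than on replicate 1, 32 were day 3 calls and 25 were not. Of those 25, 24 (96.0%) were higher on both Jmjd2c arrays than on both Jmjd2a arrays at day 3, against 23.2% of all probe sets. At day 1 this was so for 2 of the 25, against 15.7% of all. Of the 152 probe sets that read more than 4-fold higher on day 3 control replicate 1 than on the day 1 controls, 10 (6.58%) were higher with Jmjd2c at day 3.

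Measures of the arrays moved with this order. Spiked hybridisation controls read 11.09 and 10.92 on the Jmjd2c arrays of day 3, 10.69 and 10.80 on the Jmjd2a arrays, and 11.58 on control replicate 2. The interquartile range of log2 values was 3.38 and 3.40 with Jmjd2c, 3.52 and 3.57 with Jmjd2a, and 3.08 on control replicate 2. The part of these measures in the day 3 difference was not tested.

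The 8 probe sets called higher with Jmjd2a at day 3 had differences of 0.67 to 1.05, and 2 of them named a gene. Ttc14 gave 1.05 (interval 0.75 to 1.34, adjusted p = 0.021 by limma), and its other 9 probe sets gave 0.05 to 0.52 without passing. Wdr33, a subunit of the complex that forms messenger RNA 3′ ends, read 6.63 and 6.41 with Jmjd2a against 5.87 and 5.68 with Jmjd2c, a difference of 0.74 (adjusted p = 0.046). Its other 6 probe sets lay between -0.25 and 0.28. For all 8, both Jmjd2a arrays lay above both day 3 controls. The 8 were called for high Jmjd2a values, and the share of all probe sets with this order was not counted. For Ttc14 the lower Jmjd2a array read 5.42, against 5.36 and 3.63 on the day 3 controls.

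The sign of the label difference followed the level of the probe set. At day 3 the median difference was between -0.08 and -0.02 in each of the 6 dimmest of 10 bins of equal size and between 0.03 and 0.09 in each of the 4 brightest. At day 1 the medians stayed between -0.02 and 0.01. Probe sets higher with Jmjd2a without overlap on both days made up 1.89% of the dimmest bin and 10.9% of bin 8. Probe sets naming no gene had a median of -0.03, and brightest probe sets of genes with several had 0.01. Most pooled list medians were no larger in size than the largest of these bin medians.

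**Figure D5:**
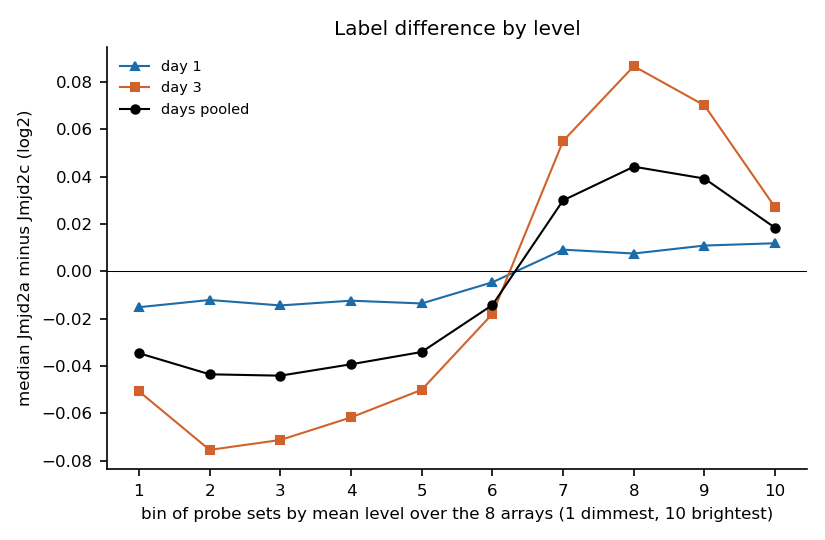
Median log2 difference between labels in 10 bins of the 45037 probe sets, ordered by mean level, for each day and pooled. The day 3 line passes from -0.08 in bin 2 to 0.09 in bin 8, while the day 1 line stays within 0.02 of 0.

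Distances between whole arrays gave the same order of days. At day 1 the correlation across probe sets between arrays of different labels was 0.9957 to 0.9979, and between replicates 0.9959 to 0.9962. The 2 highest of these, 0.9979 and 0.9970, were between arrays of different labels with the same replicate number. The median absolute difference between labels was 0.09 to 0.12, and between replicates it was 0.11 and 0.12. At day 3 the labels gave 0.11 to 0.13 and the replicates 0.09 and 0.09, a small excess over replicate spread. The first principal component of the 8 arrays, with 61.9% of the variance, separated the days. On the second (11.3%) the Jmjd2a and Jmjd2c arrays of day 3 lay apart (9.17 and 15.5 against -13.2 and -8.20), and at day 1 the replicates lay apart on it, not the labels.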

How the data were processed

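Values were the log2 intensities per probe set that the authors deposited for 12 Affymetrix mouse genome arrays. How they were normalized is not stated in the labels or headers. The table held 45101 probe sets, of which the 64 Affymetrix controls entered no test. Genes came from the platform's annotation, and 34945 probe sets named 1 gene, 932 several and 9160 none. RefSeq symbols and promoters were those of GRCm38.p6. A gene in a list was represented by its brightest probe set naming it alone.

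The pooled difference was the label coefficient of a limma 3.58.1 model (R 4.3.3) with label and day on the 8 arrays, with moderated variances that follow intensity, and 5 residual degrees of freedom. Day-wise differences and their contrast came from 4 group means. The Benjamini-Hochberg adjustment ran over 45037 probe sets, with calls under 0.05. The method was tested on simulated data with noise independent between arrays. Of 1.5-fold changes it recovered 20.5% at day 1, 21.5% at day 3 and 73.5% with days pooled. Of 2-fold changes it recovered 79%, 77.5% and 93.5%. Array values carry no read depth, and 2 arrays per group limit the precision.

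The comparison, lists, named genes and alternatives were chosen with earlier results of these data known. Named genes were 21 genes of the question, the 12 largest differences in each direction without overlap on both days (mean under the higher label above the median of all probe sets), up to 3 members of smallest p per list, and the genes called between days; not all list members selected are named. Alternatives were quantile normalization, centring, a level filter, a prior without trend, array weights, a single probe set for each gene, a threshold of 0.10, a 1.5-fold floor, all 12 arrays, replicate number as a block, the mean of within-day differences and leaving out each array. Figures used matplotlib 3.10.9 in Python 3.11.15.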

Additional observations from a re-analysis of the deposited data

Results flagged for a closer look

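The label difference itself differed between days, by limma's test of the contrast between days, for 6 probe sets. The contrast was -1.11 for the called Bzw2 probe set (adjusted p = 0.018) and -2.44 for the Gm9222 probe set (adjusted p = 0.039). The 4 others, which name no gene, gave -2.67, -1.98, -1.52 and -1.51. All 6 read more than 4-fold higher on day 3 control replicate 2 than on replicate 1, and the cause was not tested. Groups of 2 arrays allow no test for a single outlying array.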

How the results depend on the processing

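The pooled count of 0 held under every alternative but the mean of the within-day differences, with 17, and leave-one-out, with 0 to 1. With the replicate block it was 0, with a smallest adjusted p of 0.093. Same-numbered arrays deviated together between the labels at day 1 (r = 0.39 across probe sets) and hardly at day 3 (r = 0.05). The remaining pairs of groups (-0.04 to 0.01) cross days and do not bear on pairing within a day. The main tests did not pair the arrays, so the shared deviation of day 1 stayed in their spread. With the replicate block the day 1 count was also 0. The day 1 count ran from 0 to 56 when 1 array was left out. The day 3 count of 49 was 43 after quantile normalization, sharing 40 probe sets, and ran from 10 to 61 leaving out 1 array. It was 11 above the median level (21 of the 49 tested), 4 with 1 probe set per gene (7 tested), 131 with array weights, 29 with a prior without trend, 92 at an adjusted p under 0.10 and 0 with all 12 arrays. Chosen after seeing the data, the replicate block gave 258 at day 3 (148 higher with Jmjd2a) and 29 between days, and only the arrays of day 3 gave 1086 (816 higher). The count of 6 between days was 10 with array weights or under 0.10, 1 without trend, 0 with 1 probe set per gene or 12 arrays, and 0 to 11 leaving out 1 array. Mean correlations between labels were 0.9966 (day 1) and 0.9964 (day 3), and 0.9946 and 0.9959 above the median level. The causes were not tested. Where 1 array of a group was left out, the remaining one was assumed to vary like the other groups. Of the 49 day 3 calls, 8 held in all 8 leave-one-out fits, and no difference among the 49 changed sign in any alternative tried on them. Named genes changed sign in 39 of 2366 values, none past the test in either setting. For Kdm4a the sign turned after quantile normalization (-0.04) and in 4 of 8 leave-one-out fits. Of 34 list medians, 15 kept their sign in all 10 settings.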

Other observations

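In probe sets that separated the labelled arrays of day 1 from the day 1 controls, Jmjd2a day 1 replicate 2 lay nearest the controls. Over all 45037 probe sets this array lay outside the range of the other 3 for 23387, close to the average of the labelled arrays of its day. Without replicate 1, leaving it as the only Jmjd2a array of day 1, limma called 56 probe sets at day 1, with that array assumed to vary like the other groups. Because that fit held only this array for Jmjd2a at day 1, the probe sets it called lie apart on this array by selection. Their position is therefore not set against that of all 45037. Of the 23387 probe sets outside the range of the other 3, this array lay between those 3 and the day 1 controls for 8803. Over the 766 probe sets with a difference of more than 2-fold between the day 1 controls and the other 3 arrays, it lay a median of 19.96% of the way to the controls, against -2.71%, 3.14% and -10.4% for the other 3, each measured in the same way over 670 to 718 probe sets. The genes below were chosen after their values were seen.

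Of the B cell genes called in that fit, some were lower on that array and others higher. An Ighm probe set read 12.9 there and 12.3, 12.4 and 12.5 on the others, and an immunoglobulin kappa probe set was also higher. The genes that follow were lower. Cd79b, a signalling chain of the B cell receptor, read 12.4 there and 12.8, 12.9 and 13.0 on the other 3, with day 1 controls at 11.2. Cd79a, its partner, read 7.73 there and 8.40, 8.46 and 8.43 on the others, and the controls read 7.04 and 6.98. The kinase Syk read 10.2 there and 10.7 to 10.8 on the others. Vpreb3, of the early B lineage, read 8.49 there and 9.73, 9.76 and 9.33 on the others. A second set was higher. The quinone reductase Nqo1 read 7.62 there and 6.05, 6.08 and 6.29 on the others, with controls at 6.47 and 6.58. The cell cycle inhibitor Cdkn1a read 7.71 there and 6.97, 6.76 and 6.85 on the others. Ahr, the receptor for aromatic compounds, read 11.2 there and 10.5, 10.5 and 10.6 on the others.

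The genes that follow were called at day 1 without Jmjd2c day 1 replicate 1. That fit held only Jmjd2c day 1 replicate 2 for its group, so they lie apart on this array by selection. The complement gene C1qb of macrophages read 10.4 there, 8.02 on Jmjd2c day 1 replicate 1, and 8.63 and 9.04 with Jmjd2a. H2-Oa and H2-DMa, which regulate peptide loading of MHC class II, were also the highest there. H2-Oa read 11.2, against 10.2 to 10.4 on the other 3 arrays, and H2-DMa read 11.7, against 10.99 to 11.14.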
